A study of Mus musculus with 8 samples.

Results

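The respiratory chain and ATP synthase subunits measured here are 81 of the 18193 genes with a value on the arrays. They are the nuclear genes whose symbol on the array platform begins with Ndufa, Ndufb, Ndufc, Ndufs or Ndufv and a number, with Uqcr or with Atp5, the genes Sdha to Sdhd, the Cox4 to Cox8 genes, Cyc1 and Cycs. The fat-type marker subunits Cox7a1 and Cox8b were left out, and each gene is read from its brightest probe set. By symbol, 35 genes belong to complex I, 4 to complex II, 9 to complex III, 15 to complex IV and 17 to complex V, and Cycs stands alone. The study hybridised total RNA from gonadal white fat of 10-week-old mice to Affymetrix arrays, with 4 arrays of wild-type control mice on the Swiss background (controls 1, 2, 3 and 4) and 4 arrays of aP2-Pex5 knockout mice (knockouts 6, 8, 9 and 10). The numbers are those of the sample titles. Pex5 encodes the receptor that carries matrix proteins into peroxisomes, and in the knockout mice it is deleted in adipose tissue under the aP2 (Fabp4) promoter, which is active in fat cells but is known to act in some other cells too. Mice of both groups were kept under normal conditions and were not treated.

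The respiratory chain lies in the inner mitochondrial membrane. Complex I takes electrons from NADH and complex II takes them from succinate. Both pass them through ubiquinone to complex III, then through the carrier cytochrome c to complex IV, which reduces oxygen, while complexes I, III and IV pump the protons that drive ATP synthase (complex V). White fat cells hold fewer mitochondria than brown fat cells, and nuclear genes of the chain are known targets of NRF1, GABP, YY1, the ERR receptors and the coactivator PGC-1.

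Promoter windows with such motifs are shown for Cycs and for at least 1 member of each complex. Whether the motifs bear on the levels of the members was not tested. Each window runs from 250 bases before to 50 bases after the annotated start, 5′ to 3′ on the gene's strand, from RefSeq on build GRCm38.p6. The RefSeq table held 70 windows for 65 of the 81 members. Capitals mark every match, on either strand, to the letters GCGCATGC (NRF1), CCGGAAG (the ETS family, which includes GABP), AAGATGGCG (YY1) and TCAAGGTCA (the ERR family). The windows are Sdhb at chr4:140961021-140961320 on the plus strand, and on the minus strand Sdhd at chr9:50603800-50604099, Ndufs4 at chr13:114388045-114388344, Uqcr11 of complex III at chr10:80406772-80407071, Cox6a1 at chr5:115348909-115349208, Cycs at chr6:50566520-50566819 and the second of the windows of Atp5j at chr16:84834927-84835226.
Sdhb: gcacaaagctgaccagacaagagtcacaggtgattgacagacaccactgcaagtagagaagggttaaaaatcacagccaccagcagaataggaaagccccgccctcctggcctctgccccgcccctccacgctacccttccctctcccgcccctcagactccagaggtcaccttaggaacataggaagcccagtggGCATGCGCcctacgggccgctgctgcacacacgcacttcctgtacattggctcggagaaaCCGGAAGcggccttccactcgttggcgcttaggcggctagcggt
Sdhd: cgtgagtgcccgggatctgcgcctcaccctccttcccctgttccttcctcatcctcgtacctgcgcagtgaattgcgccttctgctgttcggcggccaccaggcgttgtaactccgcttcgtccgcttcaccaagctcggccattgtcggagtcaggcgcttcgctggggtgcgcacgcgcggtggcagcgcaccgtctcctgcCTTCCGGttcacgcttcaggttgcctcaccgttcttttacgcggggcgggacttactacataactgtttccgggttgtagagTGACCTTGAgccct
Ndufs4: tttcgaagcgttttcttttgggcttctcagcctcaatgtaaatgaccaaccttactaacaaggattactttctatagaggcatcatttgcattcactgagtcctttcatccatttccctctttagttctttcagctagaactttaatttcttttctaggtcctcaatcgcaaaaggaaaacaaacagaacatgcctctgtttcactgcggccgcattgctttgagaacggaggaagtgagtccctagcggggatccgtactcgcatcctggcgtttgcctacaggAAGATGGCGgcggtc
Uqcr11: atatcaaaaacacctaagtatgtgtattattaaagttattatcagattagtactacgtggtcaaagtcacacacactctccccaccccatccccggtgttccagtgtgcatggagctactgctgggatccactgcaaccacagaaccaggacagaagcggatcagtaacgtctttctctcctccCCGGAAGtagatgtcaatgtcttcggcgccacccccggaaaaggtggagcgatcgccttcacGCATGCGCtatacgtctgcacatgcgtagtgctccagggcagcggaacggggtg
Cox6a1: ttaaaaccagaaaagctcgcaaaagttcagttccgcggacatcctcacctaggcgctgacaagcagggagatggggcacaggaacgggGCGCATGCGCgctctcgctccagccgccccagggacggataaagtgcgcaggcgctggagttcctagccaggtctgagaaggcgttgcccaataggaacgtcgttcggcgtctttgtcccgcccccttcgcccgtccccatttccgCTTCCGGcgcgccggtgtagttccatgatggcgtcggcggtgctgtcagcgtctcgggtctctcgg
Cycs: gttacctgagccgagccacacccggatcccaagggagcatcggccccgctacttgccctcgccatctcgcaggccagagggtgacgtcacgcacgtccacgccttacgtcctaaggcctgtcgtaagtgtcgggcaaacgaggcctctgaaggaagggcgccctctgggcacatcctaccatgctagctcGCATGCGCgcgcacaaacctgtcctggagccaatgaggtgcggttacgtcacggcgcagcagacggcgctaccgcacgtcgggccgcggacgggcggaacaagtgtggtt
Atp5j: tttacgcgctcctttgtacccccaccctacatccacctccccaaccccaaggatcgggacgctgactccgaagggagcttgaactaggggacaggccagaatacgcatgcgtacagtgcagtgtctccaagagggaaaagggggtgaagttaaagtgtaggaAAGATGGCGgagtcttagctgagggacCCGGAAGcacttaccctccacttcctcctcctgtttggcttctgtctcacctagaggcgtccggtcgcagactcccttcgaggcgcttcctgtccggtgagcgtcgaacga

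The NRF1 letters were found in 10 of the 70 member windows (14.3%), against 2.71% of the 32851 windows of all genes. ETS letters were found in 17 windows (24.3%, against 8.86%), YY1 letters in 6 (8.57%, against 1.40%) and ERR letters in 2 (2.86%, against 0.423%). Shorter motifs of general promoter factors were closer to the background: CCAAT (NFY) was in 41.4% of member windows against 37.4%, and GGGCGG (the SP and KLF family) in 42.9% against 35.7%. In Sdhb the NRF1 match began at -54 from the start and the ETS match at 7, counting the start as base 1 with no base 0. In Cycs the NRF1 match began at -60, and in Uqcr11, a small complex III subunit, at -4. The YY1 matches of Atp5j and Ndufs4 began at -88 and 36. In Cox6a1 the capitals at -162 and -160 are a pair of overlapping NRF1 matches on opposite strands, and in Sdhd the ERR match began at 37. These are matches of letters, and no measurement of binding was part of the data.

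Before the comparison, several arrays stood apart in genes of other tissues, with each list given as its mean log2 level. The 10 liver markers were at 11.43 on control 1 and between 7.16 and 9.73 on the other arrays. Spermatid markers (11 of 11 measured) were at 7.43 on control 3 and 7.96 on knockout 9, with 5.94 on control 4 and 5.08 to 5.57 elsewhere. Epididymis markers (10 of 12 measured) were at 7.30 on knockout 8 and 6.05 on control 1, against 4.81 to 5.20 elsewhere. Adipocyte markers (10 of 12 measured) were at 13.06 to 13.39 in controls and 13.23 to 13.39 in knockouts, near the top of the scale on every array. The arrays also formed 2 sets by the lower quartile of their values: controls 1 and 2 with knockouts 6 and 8 (set 1), and controls 3 and 4 with knockouts 9 and 10 (set 2). In the order of the sample list, all arrays of set 1 come before all arrays of set 2. The labels name no batch for these sets, and whether they were processed apart could not be tested. The Pex5 probe sets differed by -0.01 and 0.04 between groups (log2), and since the labels do not give the deleted exons these probes do not check the genotype.

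No respiratory chain or ATP synthase subunit differed between knockout and control fat at the test's threshold. In limma's moderated test over all 18193 genes with Benjamini-Hochberg adjustment, 0 of the 81 members had an adjusted p under 0.05 (smallest adjusted p 0.999), and the background over all genes was 0%. At an unadjusted p under 0.05, 0 members were lower and 0 higher, against 1.38% of all genes lower and 1.18% higher (466 genes in all). In 0 members did the 4 knockouts lie wholly below or wholly above the 4 controls, against 1.02% and 0.682% of all genes. The members' differences, knockout minus control on the log2 scale, ran from -0.18 (Ndufs1) to 0.20 (Cox7b2), and the 95% confidence interval of a member reached a median of 0.24 to either side. The array number, 4 in a group, sets that precision. The labels do not say that the arrays are separate animals, so each p reflects variation among these samples, which may be technical. In bulk fat, fewer cells of a type and less RNA per cell cannot be told apart.

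The small differences leaned towards lower values in the knockout arrays, with 58 of 81 members (71.6%) below control, against 53.3% of all genes. Their median difference was -0.04, against -0.01 for all genes. The lean was clearest in complex V, where 15 of 17 members were below control (median -0.05), and in complex III with 7 of 9 (median -0.08). Complex I had 24 of 35 below control (median -0.03), complex II 3 of 4 (median -0.05) and complex IV 8 of 15 (median -0.00). That count rests on control 1 and control 2. Without control 1, 31 of 81 members were below control and the median was 0.01, and without control 2, 37 of 81 were below with a median of 0.00. With controls 1 and 3 and knockouts 8 and 9 left out, the arrays with the highest liver, spermatid and epididymis signals, 71 of 81 members were below control and the median was -0.07. Some marker lists of other cells also leaned one way. Of the macrophage markers, 11 of 12 were below control (median -0.24), with mean levels of 9.72 to 10.45 in controls and 9.40 to 9.98 in knockouts. Liver markers had 8 of 10 below control (median -0.90). Smooth muscle markers had 8 of 8 above control (median 0.37), at 7.89 to 8.97 in controls and 8.51 to 8.95 in knockouts. Other lists were mixed: 5 of 10 adipocyte, 6 of 12 skeletal muscle, 4 of 9 brown and beige fat and 5 of 8 mesothelial markers were below control. None of these markers passed the adjusted threshold, and their part in the lean was not tested.

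In most subunits the control arrays spread more widely than the knockout arrays. Across the 4 controls the median member had an SD of 0.19 log2 units, and across the 4 knockouts an SD of 0.07. The control SD was the wider in 75 of 81 members (92.6%), against 66.7% of all genes and 74.7% of genes at or above the median gene's level. The median ratio of the SDs was 2.57, against 1.33 for all genes. Complex V had the greatest ratio, 3.91, with a median SD of 0.17 in controls and 0.04 in knockouts. Cox4i2, Cox7b2, Cox7c, Cox8c, Ndufa3 and Ndufb4 were the 6 members with the wider SD in knockouts. These exceptions went with a low level: the control SD was the wider in 72 of 74 members at or above the median gene's level and in 3 of 7 below it. Leaving out any 1 array gave counts from 71 to 77 of the 81 members with the wider control SD. Related genes shared the wider control spread: 44 of 45 assembly factors (median ratio 2.33) and 16 of 16 general mitochondrial genes (median ratio 2.01). Marker lists of other cells varied, with 8 of 8 for smooth muscle, 9 of 10 for adipocytes, 3 of 8 for mesothelium and 1 of 11 for spermatids. No test of this difference in spread was run, since the members are not replicates of each other.

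**Figure D1:**
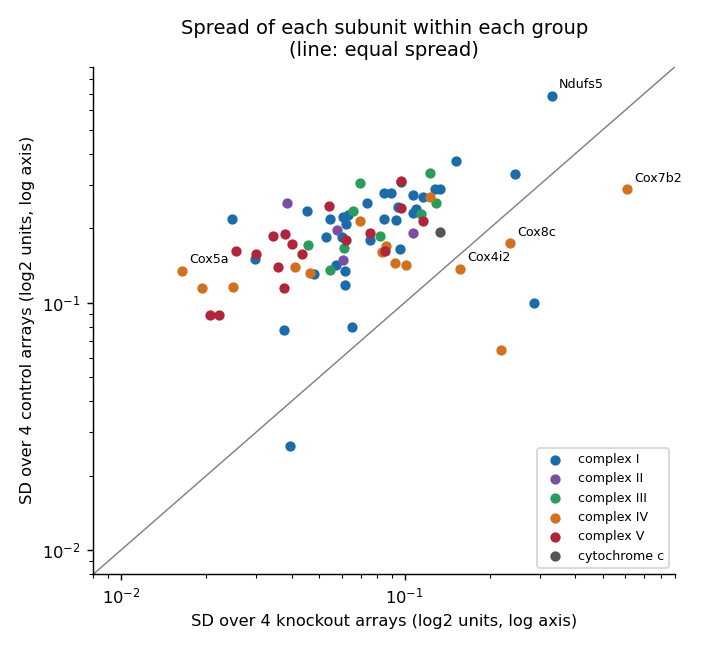
Each point is a subunit, with the SD over the 4 knockout arrays on the horizontal axis and the SD over the 4 control arrays on the vertical axis, both in log2 units on log axes, coloured by complex. The line marks equal spread, and 75 of the 81 points lie above it.

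Most subunits shared a split within the controls. Controls 1 and 2 were both above controls 3 and 4 in 68 of 81 members (84.0%), against 20.1% of all genes and 30.1% of genes at or above the median gene's level. This held in 17 of 17 members of complex V, 9 of 9 of complex III, 4 of 4 of complex II, 31 of 35 of complex I and in Cycs, but in 6 of 15 members of complex IV. The split was not particular to the subunits: it was also seen in 13 of 16 general mitochondrial genes and 33 of 45 assembly factors (73.3%). All 4 knockouts lay inside the range of the controls in 59 of 81 members (72.8%), against 34.1% of all genes. The highest of the 8 arrays was control 1 or control 2 for 68 members (84.0%, against 29.3% of all genes). The lowest was control 3 or control 4 for 64 members (79.0%, against 31.1% of all genes).

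**Figure D2:**
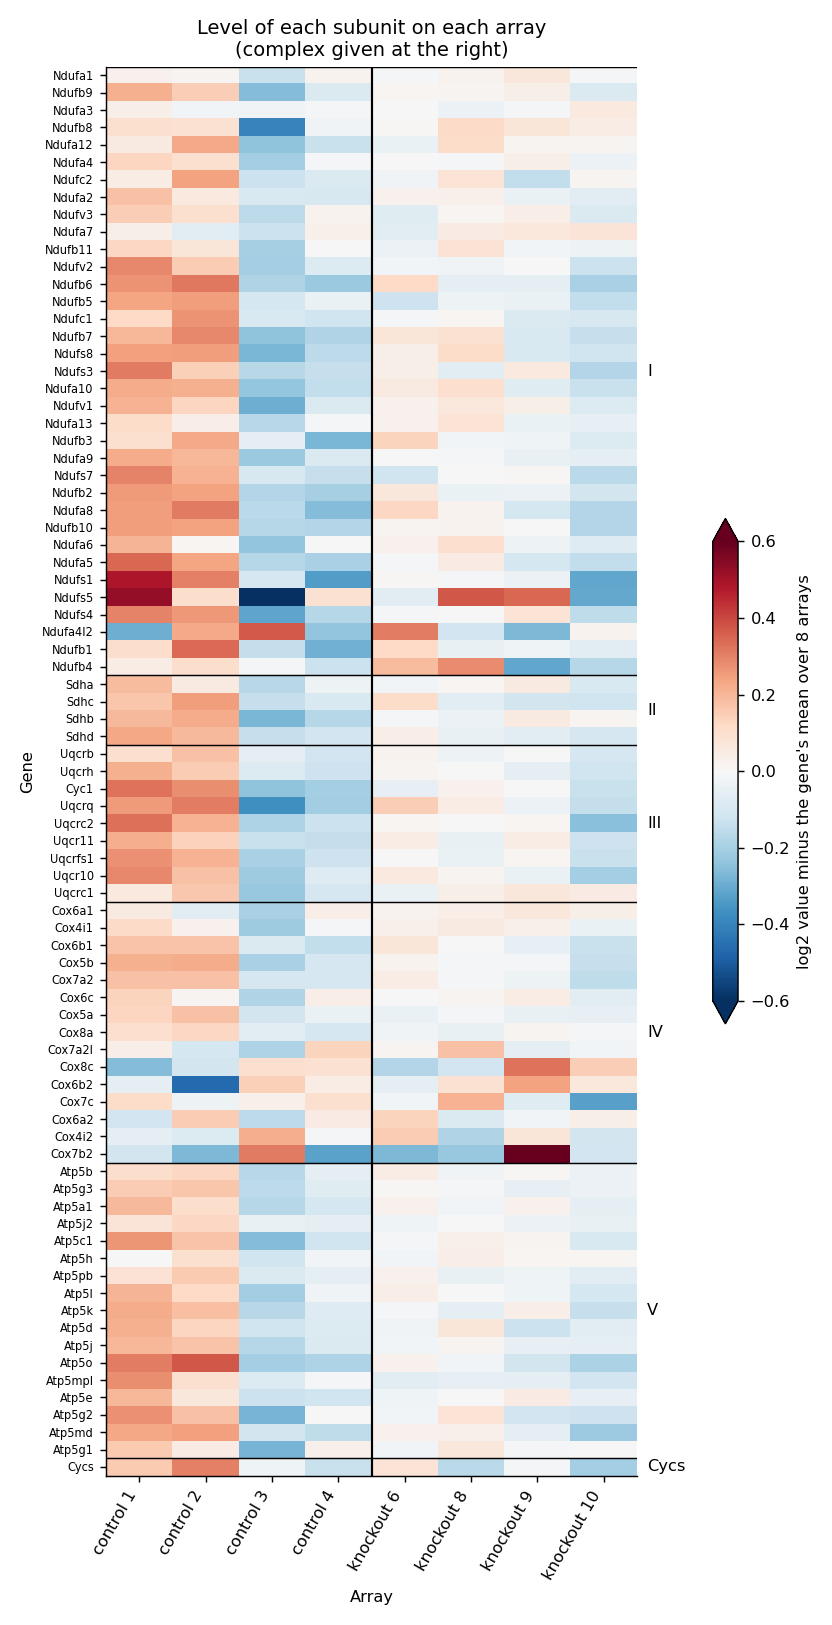
Rows are the 81 subunits grouped by complex, columns are the 8 arrays, and colour is the log2 value minus the gene's mean over the 8 arrays, on a scale that stops at 0.6 on either side. Controls 1 and 2 are above the mean and controls 3 and 4 below it in most rows, while the knockout columns are pale apart from knockout 10, which is mostly below the mean.

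The mean of the centred log2 values over a complex gives its level on each array. For complex I it was 0.18, 0.17, -0.19 and -0.11 on controls 1, 2, 3 and 4, and 0.02, 0.04, -0.02 and -0.10 on knockouts 6, 8, 9 and 10. Complex III had the widest control spread, with 0.23, 0.20, -0.19 and -0.14, against 0.02, 0.00, 0.00 and -0.13 in knockouts. In each of these complexes the controls fell into a high pair and a low pair with the knockouts between them, except that knockout 10 came close to the low controls. Complex IV differed: its controls were at 0.04, -0.00, -0.05 and -0.02 and its knockouts at -0.01, -0.01, 0.10 and -0.06, and it holds the testis-type subunits described below. Only 10 of its 15 members lay at or above the median gene's level, and all members with the control split were among them. With the median over its members in place of the mean, controls were at 0.10, 0.02, -0.10 and -0.01. Knockouts were then at 0.02, -0.01, 0.02 and -0.05, so the contrast with the other complexes rests partly on dim members. Over all 81 members the SD of the mean level was 0.16 in controls and 0.05 in knockouts. The group means of the level differed by less than its pooled SD of 0.12 (difference -0.03).

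**Figure D3:**
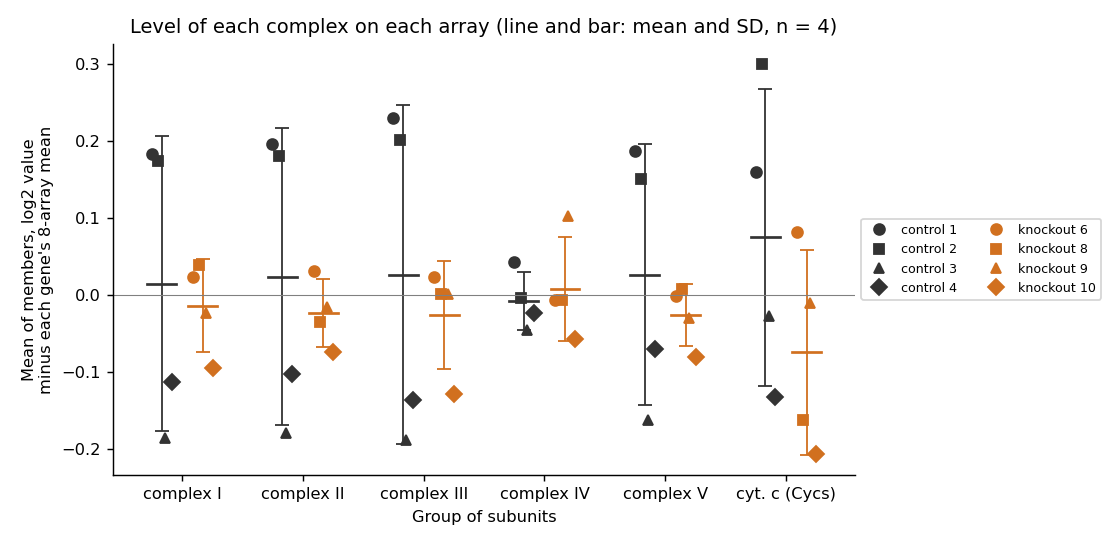
Points are the 8 arrays, with the mean over a complex's members of the log2 value minus the gene's 8-array mean on the vertical axis, controls in black and knockouts in orange; lines and bars are the group mean and SD (n = 4). Controls 1 and 2 sit between 0.15 and 0.23 and controls 3 and 4 between -0.07 and -0.19 in complexes I, II, III and V.

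Other measures of the arrays moved along with this split. Liver markers were at 11.43 and 9.09 on controls 1 and 2 and at 8.30 and 7.16 on controls 3 and 4, and on knockouts 6, 8, 9 and 10 at 9.73, 8.37, 7.17 and 7.89. Fibroblast markers (8 of 9 measured) ran the other way in controls, at 10.999 and 11.12 on controls 1 and 2 and 11.40 and 11.57 on controls 3 and 4, with 10.98 to 11.54 in knockouts. Endothelial markers (8 of 8 measured) were at 9.47 and 9.70 on controls 1 and 2 and 10.06 and 10.01 on controls 3 and 4, with 9.64 to 9.94 in knockouts. Red blood cell markers (3 of 6 measured) were at 5.63 and 5.64 on controls 1 and 2 and 6.63 and 7.52 on controls 3 and 4, with 5.66 to 6.75 in knockouts. Hba-a1, the only globin among these, stayed at 3.80 to 4.26 on all arrays, so that mean rests on Alas2 and Slc4a1. Single genes broke the order of their list in controls, namely Dpp4 and Pi16 among fibroblast markers and Gpihbp1 among endothelial ones. Brown and beige fat markers (9 of 10 measured) were at 6.49 on each of controls 1 and 2, at 6.11 and 5.95 on controls 3 and 4, and at 6.10 to 6.48 in knockouts. That list includes Cox7a1 and Cox8b, and in 4 of its 9 measured genes both of the first controls were above both of the others. Ucp1, which uncouples respiration in brown fat, was not among the 4. Adipocyte markers did not follow the split, at 13.28, 13.39, 13.37 and 13.06 on controls 1, 2, 3 and 4. The 3′ minus 5′ signal of the pyruvate carboxylase control probes, a sign of RNA quality, was 3.97 and 4.83 on controls 1 and 4 and 4.65 on knockout 9, against 1.59 to 2.10 on the others, and so crossed the split. The part of RNA from liver, connective tissue, vessels or blood in the result was not tested.

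In most subunits the difference between the groups had opposite signs in the 2 sets of arrays. In set 1 the knockouts were below the controls in 71 of 81 members, against 10005 of all 18193 genes, with a median difference of -0.15 (all genes -0.02). In set 2 they were above the controls in 72 of 81 members, against 9707 of all 18193 genes, with a median of 0.07 (all genes 0.01). Both held for 67 of 81 members (82.7%, against 27.5% of all genes), including 9 of 9 of complex III and 4 of 4 of complex II. The controls of set 1 exceeded those of set 2 by a median of 0.29, while the knockouts of set 1 exceeded those of set 2 by 0.05. The sets were defined from the arrays' own value distributions and hold 2 arrays of each group, so these are descriptions of 8 arrays. The split of the controls, their wider SD, these differences and the test that follows rest on the same values. They are not separate results.

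**Figure D4:**
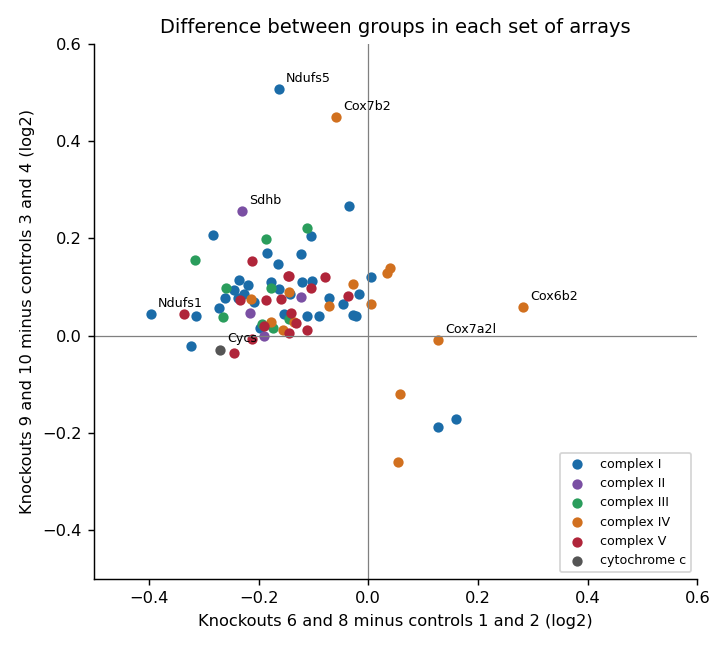
Each point is a subunit, with the knockout minus control difference among the set 1 arrays on the horizontal axis and among the set 2 arrays on the vertical axis, in log2 units, coloured by complex. Most points, 67 of 81, lie in the upper left field, lower in set 1 and higher in set 2.

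The test of that difference between sets called no member. With genotype, array set and their product in limma, 0 of 81 members had an adjusted p under 0.05 for the product (smallest adjusted p 1.0), with a background of 0% of all genes and a smallest adjusted p of 0.0890. At an unadjusted p under 0.05 the set 2 difference was above the set 1 difference in 14 of 81 members (17.3%), against 1.93% of all genes, and below it in 1 member, Ndufb4 (1.31% of all genes). Counting both directions, these were 15 members (18.5%), against 3.24% of all genes, and that count depended on single arrays. Without control 1, control 2 or control 3 it was 5 members (6.17%), while the share of all genes was 3.05%, 3.99% and 7.07%, so that without control 3 the members were below the background. Without knockout 8 or knockout 9 it was 3 members (3.70%, against 2.11% and 1.88% of all genes), and without knockout 6 it was 7 (8.64%, against 2.63%). Without control 4 it was 17 (21.0%, against 6.12%), and without knockout 10 it was 20 (24.7%, against 4.80%). With a variance trend and robust estimation on all arrays, 28 members (34.6%) were counted, against 3.35% of all genes. The 14 members with the higher set 2 difference were Ndufa5, Ndufa9, Ndufb2, Ndufb5, Ndufb10, Ndufs4 and Ndufs7 of complex I, Sdhb of complex II, Cyc1, Uqcrc1, Uqcrfs1 and Uqcrq of complex III, and Atp5c1 and Atp5o of complex V. They were singled out after their values were seen.

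Complex I, the NADH dehydrogenase, gave the member with the smallest p. Ndufb5, an accessory subunit of its membrane arm, was at 12.17, 12.19, 11.83 and 11.90 on controls 1, 2, 3 and 4 and at 11.81, 11.90, 11.90 and 11.79 on knockouts 6, 8, 9 and 10. Its means were 12.02 ± 0.18 and 11.85 ± 0.06 (SD, n = 4), a difference of -0.17 (95% interval -0.40 to 0.05, limma adjusted p = 0.999). The knockouts lay at the level of controls 3 and 4, below controls 1 and 2, and the groups overlapped.

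Ndufs1 and Ndufs7 are iron-sulfur core subunits, the first in the arm that receives electrons from NADH and the other near the ubiquinone site. Ndufs1 was at 11.49, 11.31, 10.90 and 10.67 in controls and 11.01, 10.99, 10.97 and 10.69 in knockouts, and differed by -0.18 (interval -0.59 to 0.23, 0.885-fold). Ndufs7 was at 11.86, 11.77, 11.47 and 11.42 in controls and 11.44, 11.56, 11.57 and 11.40 in knockouts, and differed by -0.14 (interval -0.40 to 0.12). In each of them the high values were those of controls 1 and 2, and every knockout lay below these. Ndufs4, an accessory subunit needed for a stable complex, showed the split of the sets more clearly: it was at 10.91, 10.87, 10.30 and 10.45 in controls and 10.61, 10.61, 10.70 and 10.46 in knockouts, so that the group means differed by -0.04 while the set 2 difference exceeded the set 1 difference by 0.49 (interval 0.12 to 0.86, limma adjusted p = 1.0).

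Ndufs5 and Ndufb8, both accessory subunits, had differences above 0 that rested on a low control 3. Ndufs5 was at 11.45, 11.03, 9.85 and 11.01 in controls and 10.85, 11.29, 11.26 and 10.61 in knockouts. Its mean difference was 0.17 (interval -0.58 to 0.92) with control 3 and -0.16 without it, and its range of 1.60 over the 8 arrays was the widest in complex I. Ndufb8 was at 12.61, 12.60, 12.11 and 12.49 in controls and 12.52, 12.62, 12.58 and 12.55 in knockouts, a difference of 0.12 (interval -0.15 to 0.38). Control 3 was the array with the second highest spermatid signal. Knockout 9, the array with the highest, was not low, at 11.26 for Ndufs5 and 12.58 for Ndufb8. The part of spermatid RNA in these 2 genes was not tested. Probe sets that share a symbol with a copy of Ndufs5, Ndufb4, Ndufa11 or Ndufs6 were among the 9 left out for naming several genes.

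Ndufa4 carries a complex I symbol although its protein is also described as part of complex IV. It was at 12.51, 12.48, 12.18 and 12.37 in controls and 12.38, 12.37, 12.42 and 12.35 in knockouts, and the difference was -0.01 (interval -0.20 to 0.19). Its relative Ndufa4l2, known as a hypoxia-induced gene, did not follow the other subunits: it was at 8.30, 8.82, 8.96 and 8.36 in controls and 8.90, 8.48, 8.33 and 8.62 in knockouts. For Ndufa4l2 control 3 was the highest array and control 1 the lowest, the reverse of most of the complex. Ndufb1 and Ndufb4 were below the median gene's level of 7.58, and Ndufb4, at 4.66 to 5.26, is read from a dim probe set that gives little information on it.

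Complex II, the succinate dehydrogenase that also works in the citric acid cycle, had a like order in each of its 4 subunits, with control 1 or 2 highest and control 3 lowest. Sdhb, the iron-sulfur subunit, was at 12.05, 12.07, 11.58 and 11.68 in controls and 11.84, 11.82, 11.91 and 11.87 in knockouts. The knockouts filled a window of 0.09 in the middle of a control range of 0.49, and the group means differed by 0.01 (interval -0.26 to 0.29). For Sdhb the set 2 difference exceeded the set 1 difference by 0.49 (interval 0.21 to 0.77, limma adjusted p = 1.0), the smallest such p among the members.

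Sdha, the flavoprotein, was at 12.16, 12.02, 11.80 and 11.94 in controls and 11.96, 11.98, 12.02 and 11.88 in knockouts, a difference of -0.02. The membrane anchors Sdhc and Sdhd differed by -0.09 (interval -0.34 to 0.15) and -0.08 (interval -0.32 to 0.15). Sdhc was at 12.11, 12.19, 11.80 and 11.85 in controls and 12.05, 11.87, 11.83 and 11.82 in knockouts. In these anchors knockouts 8, 9 and 10 lay near controls 3 and 4, and the groups overlapped.

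Complex III, the cytochrome bc1 complex, had the deepest split among the controls. Cyc1, its cytochrome c1 subunit, was at 12.57, 12.52, 12.002 and 12.04 in controls and 12.19, 12.27, 12.24 and 12.11 in knockouts. All 4 knockouts of Cyc1 fell in the gap between the control pairs, and the set 2 difference exceeded the set 1 difference by 0.47 (interval 0.17 to 0.77). Uqcrq, a small subunit, had the widest control range of the complex, at 12.45, 12.51, 11.83 and 11.99, with knockouts at 12.34, 12.24, 12.16 and 12.05 and a mean difference of 0.01.

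Uqcrc2, a core subunit, was at 12.42, 12.29, 11.90 and 11.95 in controls and 12.10, 12.08, 12.09 and 11.83 in knockouts, a difference of -0.11 (interval -0.42 to 0.19). Knockout 10 was its lowest array, below every control. Uqcr10 differed by -0.09 (interval -0.36 to 0.19) and Uqcrh, the hinge subunit that helps cytochrome c dock, by -0.08 (interval -0.29 to 0.13). In each of the 9 members of complex III both controls of set 1 were above both controls of set 2.

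Complex IV, the cytochrome c oxidase, holds both general subunits and forms made in particular tissues. None of the forms known from lung, muscle or testis showed the split of the controls. Some general subunits lacked it too, among them Cox6a1, Cox6c and Cox7a2l. Cox7c, read from a probe set below the median gene's level, also lacked it. Among the general ones, Cox5a was at 12.70, 12.75, 12.47 and 12.53 in controls and 12.53, 12.56, 12.53 and 12.53 in knockouts, a difference of -0.08 (interval -0.26 to 0.11). Its knockout SD of 0.02 was the smallest of the 81 members, against 0.13 in controls. Cox6a1 was at 13.95, 13.83, 13.70 and 13.94 in controls and 13.92, 13.94, 13.96 and 13.93 in knockouts, a difference of 0.08 (interval -0.09 to 0.25), with control 3 lowest.

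Cox4i1, Cox6b1, Cox7a2 and Cox8a, the widely made forms, differed by 0.04, -0.05, -0.07 and -0.03, and in each of them control 3 or control 4 or knockout 10 was lowest. Cox4i1, the general form of a regulatory subunit, was at 13.56, 13.47, 13.23 and 13.44 in controls and 13.48, 13.50, 13.47 and 13.40 in knockouts. Cox7a2l, known for its part in joining complexes III and IV into supercomplexes, was at 11.11, 10.97, 10.89 and 11.21 in controls and 11.09, 11.25, 11.02 and 11.06 in knockouts (difference 0.06). It did not show the control split, since control 4 was its highest control.

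The forms known from lung (Cox4i2) and muscle (Cox6a2) lay below the median gene's level, and skeletal muscle markers were at 5.26 to 5.49 on all arrays. Cox4i2 was at 6.03 to 6.33 in controls and 5.93 to 6.26 in knockouts, and Cox6a2 at 6.16 to 6.47 and 6.23 to 6.45. Neither showed an order between the groups. The table holds no detection calls, so a low value cannot be read as absence.

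The forms known from testis, Cox6b2, Cox7b2 and Cox8c, were highest, in the probe sets that stand for them, on knockout 9, the array with the highest spermatid markers. Cox7b2 was at 3.64, 3.48, 4.06 and 3.42 in controls and 3.48, 3.52, 4.75 and 3.63 in knockouts, and control 3, with the second highest spermatid signal, was its second highest array. Its difference of 0.20 (interval -0.47 to 0.86), the highest of the 81 members, was -0.11 without knockout 9. Cox8c was at 8.08, 8.23, 8.44 and 8.44 in controls and 8.17, 8.23, 8.67 and 8.49 in knockouts (difference 0.09, interval -0.22 to 0.40). A dimmer probe set of Cox8c, at 6.14 to 6.79, was highest on control 4 and differed by -0.11, with knockout 9 at 6.61. Cox6b2 was at 7.39, 6.98, 7.59 and 7.50 in controls and 7.40, 7.54, 7.70 and 7.51 in knockouts, and its difference of 0.17 (interval -0.14 to 0.48) had the smallest p of complex IV (limma adjusted p = 0.999), with control 2 lowest. The part of spermatid RNA in these values was not tested.

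**Figure D5:**
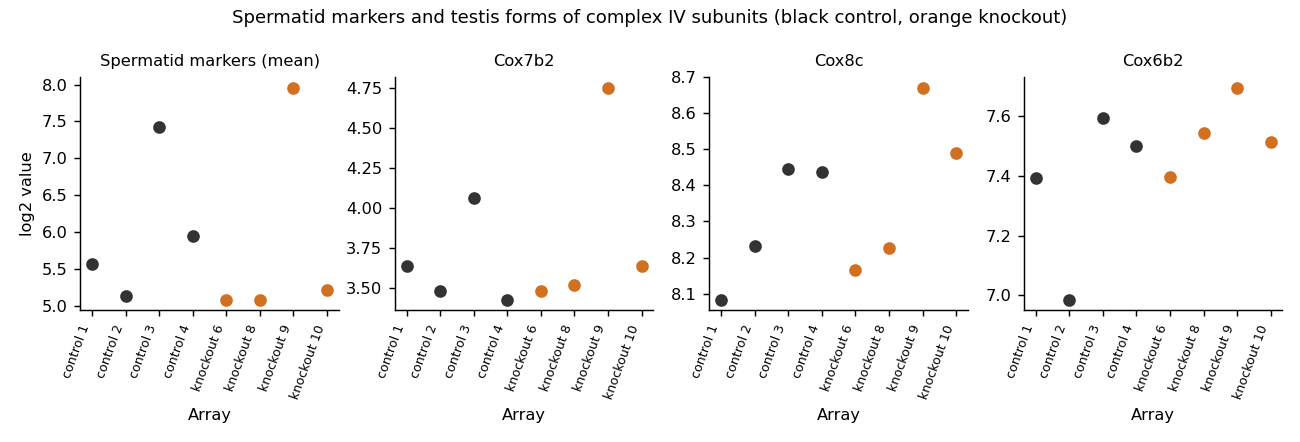
The panels give, for each of the 8 arrays (controls black, knockouts orange), the mean log2 level of the 11 spermatid markers and the log2 values of Cox7b2, Cox8c and Cox6b2, each on its own vertical axis that does not start at 0. Knockout 9 is the highest array in every panel, and control 3 is second in all panels but that of Cox8c, where knockout 10 is.

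Complex V, the ATP synthase, was the most uniform complex among the knockouts. Its catalytic head subunits stayed close between groups, with Atp5a1 at 13.35, 13.26, 12.98 and 13.05 in controls and 13.18, 13.14, 13.18 and 13.10 in knockouts, and Atp5b at 13.78, 13.79, 13.50 and 13.61 against 13.71, 13.65, 13.67 and 13.63. Their differences were -0.01 and -0.00. In both the knockouts lay within the control range, and these genes were taken as examples after their values were seen.

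Atp5o, the stalk subunit that confers oligomycin sensitivity, was at 12.73, 12.79, 12.22 and 12.24 in controls and 12.45, 12.41, 12.31 and 12.23 in knockouts, a difference of -0.15 (interval -0.48 to 0.19). Atp5mpl and Atp5md are small subunits of the membrane part, and Atp5mpl had the smallest p of the complex. Atp5mpl was at 12.08, 11.90, 11.72 and 11.79 in controls and 11.74, 11.76, 11.75 and 11.69 in knockouts, a difference of -0.14 (interval -0.34 to 0.06, limma adjusted p = 0.999). Atp5md was at 11.34, 11.36, 11.003 and 10.96 in controls and 11.14, 11.14, 11.06 and 10.89 in knockouts, a difference of -0.11. In all 3 genes every knockout was below controls 1 and 2. For Atp5o and Atp5md, knockouts 6 and 8 lay between the high and the low controls.

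Atp5g1, Atp5g2 and Atp5g3 encode the same mature subunit of the proton-driven ring with different import sequences. They differed by 0.02, -0.08 and -0.04, each with an interval that includes 0 and reaches 0.20 or more to one side. Atp5g2 was at 11.70, 11.60, 11.15 and 11.43 in controls and 11.41, 11.51, 11.31 and 11.31 in knockouts, and Atp5g1 at 10.31, 10.20, 9.87 and 10.18 against 10.14, 10.22, 10.14 and 10.16. Control 3 was the lowest array for each of the 3 genes.

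Cytochrome c itself (Cycs), the mobile carrier between complexes III and IV, was at 13.10, 13.24, 12.91 and 12.80 in controls and 13.02, 12.77, 12.93 and 12.73 in knockouts. Its difference was -0.15 (interval -0.41 to 0.11, limma adjusted p = 0.999). Unlike most members, Cycs had its lowest values on knockouts 8 and 10, just below control 4, and the groups overlapped.

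The genes around the complexes showed a similar lean without passing the test. Of 48 listed assembly factors, which insert cofactors and join subunits, 45 were measured: 0 passed the adjusted threshold, 39 were below control and the median difference was -0.06. By complex, 10 of 13 factors for complex I were below control, 4 of 4 for complex II, 5 of 6 for complex III, 17 of 19 for complex IV and 3 of 3 for complex V. Atpaf1, which helps assemble the catalytic head of ATP synthase, was at 8.97, 8.93, 9.01 and 8.82 in controls and 8.74, 8.66, 8.86 and 8.73 in knockouts, a difference of -0.18 (interval -0.35 to -0.02), and was the 1 factor of 45 with an unadjusted p under 0.05, where 1.38% of all genes were lower by that rule. Coa5, a complex IV factor, was the 1 factor of 45 whose groups did not overlap, at 11.22 to 11.36 in controls and 11.07 to 11.20 in knockouts, where 1.02% of all genes were so placed. Single genes at such shares are not a result about the factors. Bcs1l, which inserts the Rieske protein into complex III, and Cox20, which helps the Cox2 subunit mature, differed by -0.31 (interval -0.68 to 0.06) and -0.30 (interval -0.64 to 0.04). In Cox20 controls 1 and 2 were again the highest arrays, at 11.42 and 11.30.

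Across arrays the assembly factors did not keep the exact order of the subunits. Their mean centred level was 0.17, 0.23, 0.01 and -0.26 on controls 1, 2, 3 and 4 and 0.06, -0.02, -0.05 and -0.14 on knockouts 6, 8, 9 and 10, so that control 4 and not control 3 was lowest. General mitochondrial genes (16 of 17 measured) also had control 4 lowest, with 0.18, 0.17, -0.05 and -0.16 in controls, and 15 of 16 were below control with a median of -0.06. Hspd1 and Hspe1, the chaperonin of the mitochondrial matrix, each differed by -0.16. None of these general genes passed the adjusted threshold.

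Of 23 listed regulators of mitochondrial genes, 22 were measured and 0 passed the adjusted threshold. Of these 22, 16 were below control and 6 above it, with differences from -0.32 to 0.84 and a median of -0.08. Mterf2, a mitochondrial transcription regulator, differed by -0.32 (interval -0.67 to 0.02), and Tfb1m, which methylates mitochondrial ribosomal RNA, by -0.18 (interval -0.42 to 0.06). Ppargc1a, the coactivator PGC-1alpha, was above control and was chosen after its values were seen. The highest difference among the regulators, 0.84, was that of another gene. Ppargc1a was at 7.49, 7.22, 5.80 and 7.08 in controls and 7.78, 7.83, 7.09 and 7.29 in knockouts. Its difference was 0.60 (interval -0.22 to 1.42), with control 3 far below the other arrays. The complex I subunit ND5, encoded by the mitochondrial genome itself, was at 14.10 ± 0.04 in controls and 14.03 ± 0.09 in knockouts (SD, n = 4), and did not show the split of the controls. Of 26 listed symbols of that genome it was the only 1 measured, so it does not speak for the others. Its level was near the highest value on the arrays, 14.83.

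The subunits left out of the group, known from brown fat and muscle, had far wider spreads. Cox7a1 was at 7.92, 7.90, 6.59 and 6.54 in controls and 7.85, 7.31, 6.78 and 6.99 in knockouts, and its means were 7.24 ± 0.78 and 7.23 ± 0.47 (SD, n = 4). Cox8b was at 9.18, 8.92, 8.53 and 7.68 in controls and 9.54, 8.84, 8.46 and 8.46 in knockouts, a difference of 0.25 (interval -0.56 to 1.06). Both were higher on the arrays of set 1 in each group, and neither differed between groups beyond the spread.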

How the data were processed

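The authors deposited log2 values of 8 Affymetrix arrays in 1 table, made with RMA per the submitters' processing notes (version: not given in the sources used here). RMA subtracts background, equalises the arrays' distributions and summarises probes, which compresses differences in dim probe sets. Of 45101 probe sets, 64 controls were left out; 34945 of the rest had a single gene symbol in the platform annotation, 932 had several and 9160 had none. The brightest probe set over the 8 arrays stood for each of 18193 genes. For 15 members it carries an x or s suffix, meaning that its probes may match related genes. Of 49 members with several probe sets, 16 had probe sets whose differences disagreed in sign.

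Knockout and control were compared with limma 3.58.1 in R 4.3.3 over all genes, with Benjamini-Hochberg adjustment. The script was tested on simulated data. No array pair held identical values (0 of 28). Array sets were split at the widest gap in the arrays' lower quartiles (4.77 to 4.85). Named members were, per complex, the 3 with the smallest p, the 2 with the widest range, those whose groups do not overlap, and all tissue isoform sets; from each other list, the 2 with the smallest p. Members and lists were chosen with earlier results of these data known. Alternatives covered scaling, dim genes, probe sets, weights, blocks and left-out arrays.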

Additional observations from a re-analysis of the deposited data

Results flagged for a closer look

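The 34 named members were searched for a single array far from the other 3 of its group. The measure was the ratio of its gap to the group's range. Mean levels of all members, of members at or above the median gene's level, of each complex and of Cycs were searched too. Of 84 groups of 4 arrays, 5 held such an array. Chance flags about 1 in 20 independent groups, but these share members and Cycs is in them as a gene and as a level, so that rate is only a rough guide. Knockout 10 was the low array in 4 of the 5 flagged groups. Ndufs1 was at 10.69 on knockout 10 against 10.97 to 11.01 on the other knockouts. Uqcrc2 was at 11.83 on knockout 10 against 12.08 to 12.10. The mean centred level of all 81 members was -0.0895 on knockout 10 against 0.00155 to 0.0136, and that of complex III was -0.13 against 0.000581 to 0.0236. Cox7b2 was the 1 case of a high array, at 4.75 on knockout 9 against 3.48 to 3.63 on the other knockouts.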

How the results depend on the processing

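Over 20 alternative settings, no member passed the adjusted threshold between knockout and control. Each of the 608 differences recomputed for named members moved by less than that gene's pooled SD within the groups. This rule is loose and lets signs change: Uqcrq changed sign in 8 settings, Sdhb in 6 and Ndufb5 in 0. Ndufs5, at 0.17 in the main fit, reached -0.29 in another. The median difference of all members ran from -0.10 without control 3 to 0.01 without control 1, and was -0.06 with array medians subtracted and -0.08 with array weights. The number of members below control ran from 31 without control 1 to 71 without control 3 when 1 array was left out, and was 37 without control 2. Those counts, the counts of wider control SD and the setting without controls 1 and 3 and knockouts 8 and 9 were added after seeing the data. For the difference between array sets, 0 of all genes passed, but 1 did with dim genes left out, with array medians subtracted, at an adjusted threshold of 0.10 and with every probe set tested alone; leaving out 1 array gave 0 to 32, with 10 without knockout 6 and 32 without control 2, and no member was among them. A lone array left in a set was then assumed to vary like the others. No paired analysis was possible because the groups share no replicate numbers. The 7 dimmest members lie below the median gene, where signal over background limits what can be read.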
